A study of Oryza sativa with 36 samples.

Results

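A set of 258 rice genes was chosen because its mean level in IR64 florets was lower at each developing stage than at the one before. Each had a mean of at least 5 CPM (the count divided by the library's total and multiplied by 1000000) in IR64 florets of stage 1. Each was lower at stages 2, 3, 4 and 5 than at the stage before, and was at stage 5 at most 1/8 of its stage 1 mean. The 258 were found among 37862 gene IDs in the table, of which 15794 reached 5 CPM at IR64 stage 1 and 4952 of those were lower at every later developing stage. A further 33 genes came to 1/8 or less but not through every step and are not included.

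The libraries are poly(A) RNA of whole florets from the cultivar IR64, labelled as the wild type control, and from a transgenic line in the same cultivar, OsEPF1-oe, written OsEPF1-oeS in the protocol. OsEPF1 is a secreted signalling peptide that limits the formation of stomata; the promoter of the transgene and the number of lines are not stated in the labels. Florets of developing stages 1 to 5 were taken about 75 to 85 days after sowing, each library mixing RNA of 3 plants, and mature florets at about 95 days, after the panicle had emerged and before flowering. Both lines grew in cabinets with a day of 12 h at 30 °C and nights at 24 °C, and each of the 12 groups of line and stage holds 3 libraries, 36 in all.

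A young floret is built by dividing cells. Before a cell divides it loads the MCM helicase onto origins that the origin recognition complex has marked, copies its DNA with polymerases such as polymerase delta, packs the new DNA with freshly made histones, copies DNA methylation onto the new strand, and then separates the copies along microtubules on which kinesins act. Meristem and organ factors of the KNOX, YABBY and GRF families act in the same young tissue. Genes of all these roles were among the 258. A name was available for 27 of them, each matched by position to a synonym in the reference table and not by its ID. The others are given by ID only. Names of histone, DNA methyltransferase and kinesin genes were added after the lists, and every added gene with a checked name was one of the 258. No share of members can therefore be given for these roles. All IDs come from the IRGSP-1.0 annotation, in which the digits after Os give the chromosome.

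Library totals ran from 22372257 to 55476576 counts, so 3 counts correspond to 0.0541 to 0.134 CPM depending on the library. Os04g0637300, the ID assigned to OsEPF1 from general knowledge and not paired with that name in the reference table, lay between 0 and 2.73 CPM in the 18 IR64 libraries and between 1111 and 3539 CPM in the 18 OsEPF1-oe libraries, so its level separates the lines as labelled. The labelled tissue was checked on 22 genes of a list of floral MADS-box and spikelet identity genes, whose summed level was 3055 to 3190 CPM at IR64 stage 1 and 2895 to 2926 CPM at IR64 stage 5. Several libraries held the lowest or the highest of their group's 3 values for many of the 258 genes. The lowest value lay in OsEPF1-oe stage 1 replicate 1 for 203 genes, in OsEPF1-oe mature replicate 2 for 189 and in OsEPF1-oe stage 2 replicate 1 for 172. The highest lay in OsEPF1-oe stage 1 replicate 3 for 164 genes, in IR64 stage 2 replicate 3 for 163 and in OsEPF1-oe stage 2 replicate 3 for 156. IR64 stage 3 replicate 1 was highest for 138 genes and lowest for 93.

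Summed over the 258 genes, the level was 25804 to 27655 CPM in the 3 IR64 libraries of stage 1, which is 2.70% of all counts on average. It was 19433 to 20429 CPM at stage 2, 10083 to 13147 CPM at stage 3, 4777 to 5408 CPM at stage 4 and 2502 to 2778 CPM at stage 5. These IR64 values chose the genes and are given as a description. In OsEPF1-oe, whose libraries the choice did not use, the sums were 25171 to 29145 CPM at stage 1, 18223 to 22663 CPM at stage 2, 10332 to 11297 CPM at stage 3, 6006 to 6565 CPM at stage 4 and 2704 to 3336 CPM at stage 5. No library of one OsEPF1-oe stage overlapped a library of the next. The genes with the most counts weigh most in such a sum, and the 12 highest made up 32.0% of it at IR64 stage 1. RNA of whole florets was measured, so fewer cells of a type and less RNA per cell cannot be told apart.

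**Figure D1:**
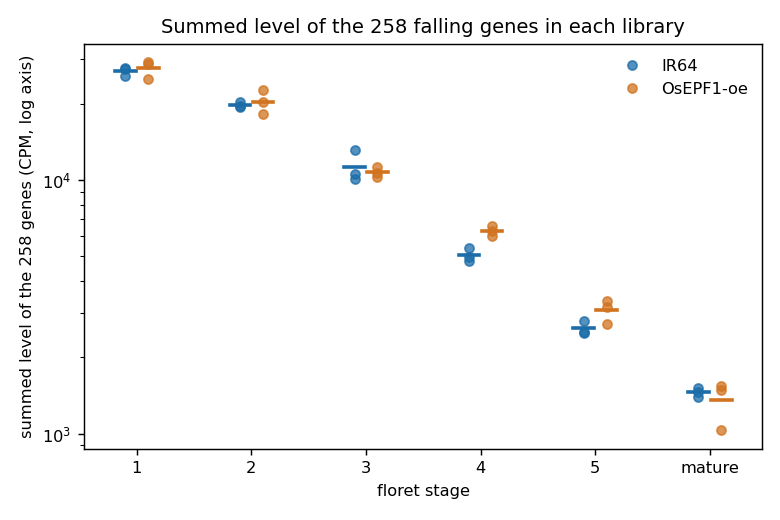
Summed CPM of the 258 genes (log axis) in each of the 36 libraries by floret stage, with IR64 in blue, OsEPF1-oe in orange and a bar at each group mean. The sum is lower at each developing stage in both lines, from 25171 CPM or more at stage 1 to 3336 CPM or less at stage 5, and the mature libraries of both lines lie between 1030 and 1542 CPM.

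The choice fixed the smallest fall that a gene could show in IR64 and left the largest free. The ratio of stage 1 to stage 5 ran from 8.03 to 206, with a median of 10.1 and a lower quartile of 9.02. Just inside the limit of 1/8 (0.125) were CDKB2-1 (Os08g0512600), Os04g0479900 and Os05g0512000, whose stage 5 to stage 1 ratios were 0.1243, 0.1243 and 0.1246. Just outside it were MCM7 (Os12g0560700, at 0.1255), Os06g0134700 (0.1256) and Os04g0486800 (0.1257), so that the sixth subunit of the MCM helicase missed the set narrowly. At the limit of 5 CPM, Os11g0533400, Os03g0322000 and Os09g0100800 had 5.08, 5.30 and 5.39 CPM at stage 1, while Os10g0486300, Os04g0414900 and Os12g0590066 had 4.74, 4.72 and 4.57 CPM and stayed out.

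All 258 genes fell between stages 1 and 5 in OsEPF1-oe as well. Each was called lower by edgeR's quasi-likelihood test with Benjamini-Hochberg adjustment over the 26726 genes tested (adjusted p under 0.05), all 258 having passed the filter on low counts, with a largest adjusted p of 0.000488. Among all tested genes 28.2% were called lower and 31% higher. The median log2 fold change of the 258 was -3.02, an 8.12-fold lower level on TMM-scaled counts, beside 0.00 for all tested genes, and single genes ran from -6.06 to -1.83. With column sums in place of TMM factors the median of all tested genes was -0.16 and that of the 258 was -3.22, and the calls over all genes were then 9580 lower and 6802 higher in place of 7544 and 8279. The stage 1 and stage 5 libraries did not overlap for any of the 258, but the share of all tested genes without overlap was not counted for this comparison.

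The same criteria applied to the OsEPF1-oe means picked 214 genes, and 177 were in both sets, 68.6% of the 258 and 82.7% of the 214. With TMM-scaled CPM in both lines 112 genes met the criteria in both. Of the 258, 243 had a lower mean at every step in OsEPF1-oe, and the other 15 failed at 1 or more steps, 9 of them at stage 2. In 72 the OsEPF1-oe stage 5 mean was above 1/8 of stage 1, and in all 72 it was at most 1/4. The highest ratio, 0.242, belonged to Os02g0772000, a gene singled out after its values were seen, which had 17.0, 18.1 and 18.05 CPM at stage 1 and 3.54, 4.05 and 5.30 CPM at stage 5. None stayed above 1/2 of its stage 1 level.

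**Figure D2:**
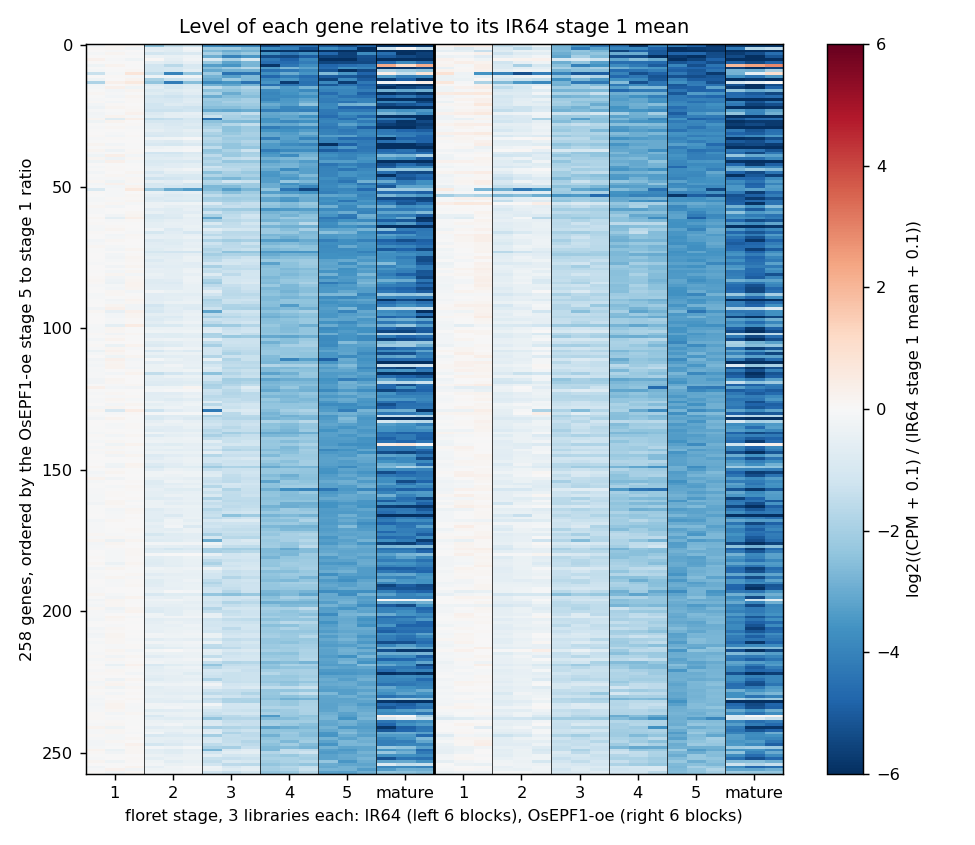
Level of each of the 258 genes (rows, ordered by the OsEPF1-oe stage 5 to stage 1 ratio) in the 36 libraries (columns), as log2 of CPM + 0.1 over the IR64 stage 1 mean + 0.1. Both lines turn from white to blue through stages 1 to 5, and the few pale or red rows in the mature blocks belong to the genes that rose again.

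The fall in OsEPF1-oe was spread over the steps and was least often called at the first. From stage 1 to 2, 80 of the 258 genes were called lower (2.74% of all tested genes) and 0 higher (6.32% of all tested genes), with a median log2 fold change of -0.48. The same 3 libraries per stage gave unadjusted p-values under 0.05 for 172 lower and 0 higher genes. The count of 80 lower calls rested on single libraries. It was 33 without stage 1 replicate 3, 47 without stage 1 replicate 2 and 31 without stage 2 replicate 1. DESeq2 gave 126. From stage 2 to 3, 237 were called lower (9.3% of all tested genes), with a median of -0.96, and 0 higher (13.1%), where unadjusted p-values under 0.05 numbered 0 and DESeq2 also gave 0. With column sums only, the calls over all genes at this step were 3315 lower and 2976 higher in place of 2486 and 3508.

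From stage 3 to 4, 175 were called lower (5.76% of all tested genes), with a median of -0.79, and 0 higher (6.39%), with 0 at an unadjusted p under 0.05 and 0 by DESeq2. The calls over all genes at this step were 1539 lower and 1708 higher, and 1963 and 1502 with column sums only. From stage 4 to 5, 166 were called lower (3.18% of all tested genes), with a median of -0.84, and 1 higher (4.55%). Column sums alone gave 1195 lower and 969 higher calls over all genes at this last step, against 851 and 1215. The exception was Os07g0517600, which had 9.79, 11.4 and 10.8 CPM at stage 3, 1.59, 0.782 and 0.701 CPM at stage 4 and 1.95, 2.02 and 2.43 CPM at stage 5. It rose by 1.13 ± 0.31 (SE) on the log2 scale from stage 4 to 5 (adjusted p = 0.0198), a call that ended without stage 4 replicate 2 or 3 or stage 5 replicate 3. Its stage 5 level was still far under the 14.4, 21.4 and 20.2 CPM of stage 1.

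Single genes were called at several steps. Of the 258, 39 were called lower at all 4 steps, 106 at 3, 75 at 2, 34 at 1 and 4 at none, although the whole fall was called in each. The number of steps called per gene was not counted over all tested genes. Of those, 2.74%, 9.3%, 5.76% and 3.18% were called lower at the 4 steps in turn. The level came to 1/2 of stage 1 or less at stage 2 in 16 genes, at stage 3 in 226 and at stage 4 in 16 in OsEPF1-oe, and in IR64, where the choice used the values, at stage 2 in 16, stage 3 in 220 and stage 4 in 22. For 232 genes that stage was the same in both lines. The largest of the 4 steps in log2 mean CPM was the same in both lines for only 109 genes. It started most often at stage 3 in IR64 (130 genes) and at stage 2 in OsEPF1-oe (128 genes). This difference involves the IR64 values that chose the genes and was not tested.

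**Figure D3:**
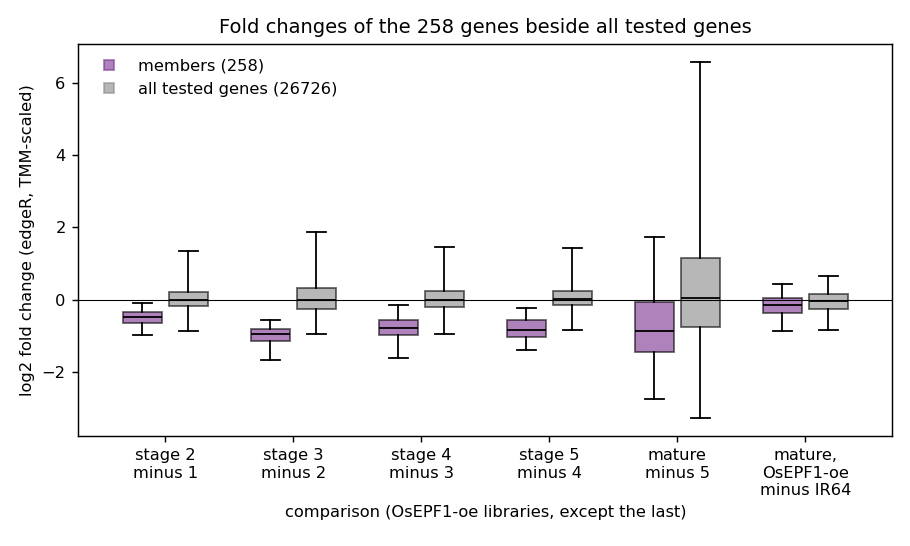
Log2 fold changes (edgeR, TMM-scaled) of the 258 genes (purple) and of all 26726 tested genes (grey) in 6 comparisons, with boxes from the 25th to the 75th percentile, a line at the median and whiskers from the 5th to the 95th percentile. The medians of the 258 genes lie at -0.48, -0.96, -0.79 and -0.84 for the 4 developing steps, at -0.86 from stage 5 to mature florets and at -0.14 between the lines in mature florets.

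The MCM helicase, which unwinds DNA ahead of the replication fork, was represented by MCM2 to MCM6, 5 of its subunits, and these moved almost as one. MCM2 (Os11g0484300) had 286, 240 and 311 CPM at IR64 stage 1 and 22.4, 23.3 and 29.0 CPM at stage 5. In OsEPF1-oe it had 235, 289 and 349 CPM at stage 1, 181, 229 and 192 CPM at stage 2, 84.7, 92.0 and 88.7 CPM at stage 3, 46.4, 54.8 and 42.5 CPM at stage 4 and 26.7, 25.3 and 26.3 CPM at stage 5. Stages 1 and 5 were far apart, while the OsEPF1-oe libraries of stages 1 and 2 lay closest to each other, the highest of stage 2 just under the lowest of stage 1. From stage 1 to 5 in OsEPF1-oe all 5 genes fell, by 3.14 to 3.31 on the log2 scale. MCM5 (Os02g0797400) fell by 3.31 ± 0.19 (SE; adjusted p = 1.58e-14), and MCM4 (Os01g0544450) by 3.14 ± 0.19 (adjusted p = 1.76e-14). The step from stage 1 to 2 was called for 1 of the 5 and the 3 later steps for all 5.

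Other genes of DNA replication followed. ORC1 (Os06g0187000) and ORC3 (Os10g0402200), subunits of the origin recognition complex, RPA1B (Os03g0214100), a large subunit of the protein that coats single-stranded DNA, and POLD1 (Os11g0186400), the catalytic subunit of DNA polymerase delta, all fell from stage 1 to 5 in OsEPF1-oe, by 2.67 to 3.18 on the log2 scale. RPA1B was the most abundant of them, with 246, 292 and 324 CPM at OsEPF1-oe stage 1 and 23.8, 29.4 and 29.3 CPM at stage 5, and fell by 3.18 ± 0.17 (SE; adjusted p = 2.68e-15). ORC1 had 91.5, 94.0 and 111 CPM at stage 1 and 12.7, 13.1 and 14.5 CPM at stage 5, a smaller fall of 2.67 ± 0.21 (adjusted p = 6.50e-12). Its step from stage 3 to 4, -0.44 ± 0.20, did not pass (adjusted p = 0.162), whereas the other 3 genes passed at that step.

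Histone H2B genes, whose product forms part of the nucleosome core, were among the most abundant of the 258. H2B.2 (Os08g0490900) had 1150, 1358 and 1298 CPM at OsEPF1-oe stage 1, 882, 985 and 1178 CPM at stage 2, 563, 639 and 599 CPM at stage 3, 284, 310 and 338 CPM at stage 4 and 101, 135 and 143 CPM at stage 5. The stage 1 and stage 2 libraries overlapped, and all later stages were apart. H2B.9 (Os05g0574300) had 712, 846 and 829 CPM at stage 1, 261, 301 and 275 CPM at stage 4 and 86.5, 114 and 125 CPM at stage 5. For H2B.2 and H2B.9 the step from stage 1 to 2 was small, -0.29 and -0.26, and did not pass, and the step from stage 4 to 5 was the largest of the 4, at -1.23 ± 0.18 (adjusted p = 4.54e-05) and -1.30 ± 0.19 (adjusted p = 3.83e-05). Over all 5 stages both fell, by 3.12 ± 0.19 and 2.66 ± 0.20. In IR64 the course of H2B.2 differed, with 725, 497 and 528 CPM at stage 3, 211, 191 and 224 CPM at stage 4 and 95.0, 115 and 92.7 CPM at stage 5, so that its largest step was from stage 3 to 4.

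Regulators of the cell cycle included CYCA3-1 (Os03g0607600), an A-type cyclin, CDKB2-1, a mitotic cyclin-dependent kinase, and RBR1 (Os08g0538700), a retinoblastoma-related repressor of entry into the cycle. All 3 fell from stage 1 to 5 in OsEPF1-oe and were called at each of the 3 later steps, but not from stage 1 to 2. RBR1 had 105, 120 and 152 CPM at stage 1, 39.3, 32.2 and 33.7 CPM at stage 3 and 10.1, 7.39 and 7.80 CPM at stage 5, the deepest fall of the 3 at 3.69 ± 0.24 (adjusted p = 1.75e-13). CDKB2-1 had 267, 293 and 288 CPM at stage 1 and 37.8, 46.2 and 46.0 CPM at stage 5, the shallowest at 2.50 ± 0.16 (adjusted p = 8.70e-14). A mitotic kinase and a repressor of the cycle thus fell together but to different depths.

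Motor proteins of the kinesin family, which move along or arrange microtubules, gave 6 named genes, KIN5C (Os08g0558400), KIN10A (Os02g0810200), KIN10C (Os05g0459400), KIN12C (Os03g0587200), KIN14E (Os03g0114000) and KCH1 (Os12g0547500). All 6 fell from stage 1 to 5 in OsEPF1-oe, by 2.65 to 3.38 on the log2 scale, and 4 of them already from stage 1 to 2. KIN14E had 144, 141 and 158 CPM at stage 1, 104, 108 and 105 CPM at stage 2, 55.7, 49.1 and 54.5 CPM at stage 3, 42.7, 38.5 and 38.3 CPM at stage 4 and 19.3, 19.7 and 22.3 CPM at stage 5. Its libraries agreed so closely that its fall of 2.65 ± 0.08 (SE), though the smallest of the 6, had the lowest adjusted p of the named genes, 4.13e-20.

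The DNA methyltransferases differed from each other. CMT3 (Os10g0104900), which methylates CHG sites, had 221, 266 and 299 CPM at OsEPF1-oe stage 1 and 24.7, 21.1 and 23.5 CPM at stage 5, a fall of 3.30 ± 0.17 (adjusted p = 8.38e-16). MET1A (Os03g0798300), which maintains methylation of CG sites, was lower throughout, with 21.1, 25.2 and 31.9 CPM at stage 1, 20.7, 23.3 and 17.2 CPM at stage 2, 17.2, 10.2 and 14.4 CPM at stage 3, 13.1, 10.9 and 8.61 CPM at stage 4 and 4.49, 3.83 and 5.27 CPM at stage 5. Its neighbouring stages overlapped up to stage 4, and only the last step was called, at -1.20 ± 0.31 (adjusted p = 0.0130). Across all stages it fell by 2.32 ± 0.31 (adjusted p = 2.52e-07).

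Factors of meristem, organ and germ cell identity included OSH6 and GRF10, the 2 deepest falls of the 27 named genes. OSH6 (Os01g0302500), a KNOX homeobox factor, had 53.8, 59.0 and 62.7 CPM at OsEPF1-oe stage 1 and 3.14, 2.95 and 3.90 CPM at stage 5, a fall of 3.92 ± 0.18 (adjusted p = 9.05e-17), and it was called at each of the 4 steps. GRF10 (Os02g0678800), a growth-regulating factor, had 65.5, 87.2 and 75.2 CPM and 3.86, 4.75 and 4.21 CPM at the same stages, a fall of 3.95 ± 0.25 (adjusted p = 5.95e-14). YAB5 (Os04g0536300), a YABBY factor of the spikelet meristem, had 390, 426 and 492 CPM at stage 1 and 42.6, 47.7 and 46.2 CPM at stage 5, and its last step, -0.35 ± 0.16, did not pass (adjusted p = 0.215).

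MEL1 (Os03g0800200), the Argonaute protein of the rice germ line, had its own time course. In IR64 it had 368, 267 and 347 CPM at stage 1, 288, 289 and 311 CPM at stage 2, 62.4, 87.2 and 133 CPM at stage 3, 18.3, 23.0 and 24.4 CPM at stage 4 and 10.5, 13.9 and 16.8 CPM at stage 5. In OsEPF1-oe the values were 287, 268 and 289 CPM, 319, 342 and 230 CPM, 168, 158 and 170 CPM, 38.8, 38.0 and 25.2 CPM, and 23.6, 14.8 and 16.04 CPM. The first 2 stages overlapped in both lines, and the stage 3 libraries of OsEPF1-oe all lay above those of IR64, a difference that was not tested because the IR64 values chose the gene. In OsEPF1-oe no change of MEL1 was called from stage 1 to 2 (0.11 ± 0.22, adjusted p = 0.896) and fell most from stage 3 to 4, by 2.24 ± 0.24 (adjusted p = 1.37e-07).

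**Figure D4:**
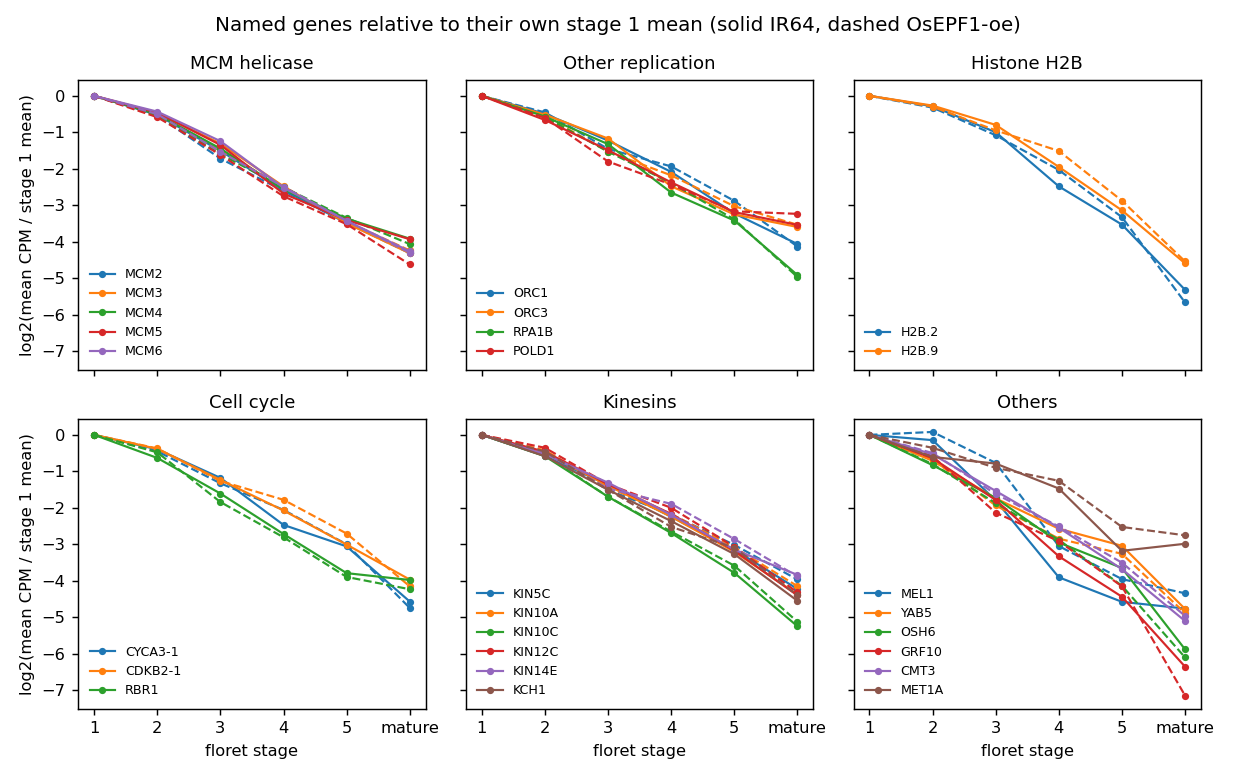
Mean CPM of 26 named genes relative to their own stage 1 mean (log2) by floret stage, in IR64 (solid) and OsEPF1-oe (dashed), in 6 panels by role. The MCM lines lie nearly on top of each other, the dashed H2B.2 and H2B.9 lines lie above the solid ones at stage 4, and MEL1 drops between stages 2 and 4.

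By level the set was led by genes without an available name. Os03g0279200 was the highest, with 1779, 2268 and 1953 CPM at IR64 stage 1 and 185, 227 and 170 CPM at stage 5. In OsEPF1-oe it had 1894, 2336 and 2079 CPM at stage 1, 1426, 1606 and 2119 CPM at stage 2, 972, 1148 and 987 CPM at stage 3, 574, 705 and 732 CPM at stage 4 and 197, 287 and 282 CPM at stage 5. It fell by 2.83 ± 0.25 (SE; adjusted p = 1.20e-10) over these stages, with stages 1 and 2 overlapping. Behind it came H2B.2, then Os01g0866200 (831 ± 90.1 CPM at IR64 stage 1, SD, n = 3), Os05g0438700 (797 ± 75 CPM), H2B.9, Os05g0113900 (501 ± 64 CPM), Os02g0684500 (453 ± 64 CPM), Os01g0756900 (439 ± 59 CPM), Os03g0221500 (423 ± 15 CPM), Os06g0160100 (417 ± 40 CPM), Os05g0223300 (412 ± 24.7 CPM) and Os12g0530000 (394 ± 21 CPM). CPM are not divided by transcript length, so this order is one of read counts. All 12 fell from stage 1 to 5 in OsEPF1-oe, by 2.66 to 3.12 on the log2 scale.

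Single genes also differed in how early they dropped. In IR64 the ratio of stage 2 to stage 1 was lowest for Os11g0533400, which had 1.32, 6.23 and 7.70 CPM at stage 1 and 0.903, 0.179 and 0.769 CPM at stage 2. Next came Os04g0386700, with 3.00, 5.38 and 8.60 CPM and 1.16, 0.608 and 0.456 CPM, and then Os01g0705200, with 5.67, 13.3 and 23.7 CPM and 4.90, 0.786 and 2.81 CPM. Stage 1 levels of these 3 genes spread widely and together, lowest in IR64 replicate 1 and highest in IR64 replicate 3, and in OsEPF1-oe highest in replicate 1 (8.11, 8.18 and 26.1 CPM) and lowest in replicate 3 (1.27, 0.761 and 1.09 CPM). The other early ones were steadier: Os03g0619151 had 4.69, 5.88 and 5.95 CPM at IR64 stage 1 and 0.903, 1.89 and 2.19 CPM at stage 2, and Os07g0124700 had 7.98, 9.73 and 11.2 CPM and 2.54, 3.82 and 4.28 CPM. Os03g0619151 had 0 counts in all 6 mature libraries, against 7 counts in all at OsEPF1-oe stage 5.

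At the other end were genes that barely differed between stages 1 and 2 in IR64. Os08g0485500 had 28.7, 27.5 and 31.9 CPM at stage 1, 28.3, 29.2 and 29.6 CPM at stage 2 and 3.99, 3.27 and 3.61 CPM at stage 5. Os05g0122500, Os09g0455200, Os03g0297850 and Os06g0675200 had group means of 20.1 and 18.8, 37.7 and 35.2, 7.98 and 7.41, and 8.95 and 8.28 CPM at stages 1 and 2. The stage 1 and stage 2 libraries overlapped for Os08g0485500, Os09g0455200 and Os03g0297850 and lay narrowly apart for Os05g0122500 and Os06g0675200. From stage 1 to 5 in OsEPF1-oe all 5 fell by 2.67 to 3.06 on the log2 scale.

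Most genes on the lists of replication, growth-regulating, meristem and organ polarity genes fell without meeting all the criteria. On a list of genes of DNA replication and cell division, 12 had a checked name and 6 were among the 258; all 11 that were tested were called lower from stage 1 to 5 in OsEPF1-oe and 0 higher, with a median log2 fold change of -2.92. Over all tested genes 28.2% were called lower and 31% higher, against which the counts of this and the other lists stand. CYCB1-1 (Os01g0805600), a mitotic cyclin, was not in the set, with IR64 means of 176 CPM at stage 1 and 32.3 CPM at stage 5, and fell by 1.78 in OsEPF1-oe (adjusted p = 1.86e-12). PCNA (Os02g0805200), the sliding clamp of DNA polymerase, just missed it, with 367 and 50.02 CPM in IR64, and fell by 2.47 (adjusted p = 5.00e-12). Growth-regulating factors gave 1 member of 6, and all 6 were called lower, with a median of -2.01. Meristem and inflorescence genes gave 1 member among 14 in the table, with 10 of 13 tested called lower, 1 higher and a median of -1.89, and organ polarity and YABBY genes 1 among 9, with 5 of 8 lower, 1 higher and a median of -1.39. The medians stand beside 0.00 for all tested genes.

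Other lists held few or none of the 258, and their counts stand beside the same 28.2% lower and 31% higher over all tested genes. Meiosis and germ cell genes gave 1 of 7 (MEL1), with 4 called lower and 3 higher from stage 1 to 5 in OsEPF1-oe and a median of -1.75. Floral MADS-box and spikelet identity genes gave 0 of 22, with 8 lower, 7 higher and a median of -0.07. The list of stomatal development gave 0 of the 3 genes with a checked name, SHR1, SHR2 and SCR1. Of these, 3 were called lower and 0 higher, with a median of -1.45. Its other genes, among them EPF1, EPFL9, MUTE and FAMA, had no checked name and were not counted. Tapetum and pollen wall genes gave 0 of 8, with 0 lower, 6 higher and a median of 4.51, and their summed level went from 69.9 to 86.0 CPM at IR64 stage 1 to 848 to 1330 CPM at stage 5. The 1 photosynthesis gene with a checked name was called higher (3.42). The part that these rising genes, which take up counts, had in the lower CPM of the 258 was not tested beyond the change of scaling above.

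By the median over the 258 genes, the lines were closer at stages 1 and 2 than at stages 4 and 5, while single genes differed by more. The median log2 ratio of OsEPF1-oe to IR64 over the 258 genes was 0.01 at stage 1 and 0.04 at stage 2, -0.10 at stage 3, and 0.20 and 0.19 at stages 4 and 5, beside -0.01, 0.00, -0.02, -0.01 and 0.00 over all tested genes. OsEPF1-oe had the higher mean in 139, 161, 82, 200 and 203 of the 258 genes at stages 1 to 5. These ratios involve the IR64 values that chose the genes and are a description. The value at stage 3 came to -0.04 without IR64 stage 3 replicate 1, the library with the highest sum of that stage. Without single libraries the stage 2 value ran from -0.0005 to 0.09, so whether the lines were closer at stage 2 than at stage 3 was not settled. Over the 214 genes chosen on OsEPF1-oe instead, the medians at stages 4 and 5 were 0.18 and 0.07, so the stage 4 value was nearly the same under either choice and the stage 5 value was not.

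At stage 4 the 3 OsEPF1-oe libraries all lay above the 3 IR64 libraries for 78 of the 258 genes (12.2% of all tested genes) and all below for 7 (10.7%). At stage 5 the counts were 33 above (7.82% of all tested genes) and 3 below (7.28%), and at stage 3 they were 11 above (6.63%) and 26 below (7.74%). At stage 4 a lack of overlap was more frequent among genes with high counts. Among the 73 above 100 CPM at IR64 stage 1, 34 were without overlap above and 1 below. The size of the difference was alike, with a median log2 ratio of 0.203 over these 73 and 0.198 over the 258. No share over all genes of a like level was counted. H2B.2 had 211, 191 and 224 CPM in IR64 and 284, 310 and 338 CPM in OsEPF1-oe at stage 4, and Os03g0279200 had 461, 396 and 510 CPM and 574, 705 and 732 CPM. For the MCM genes the lines overlapped at that stage, as for MCM2 with 43.1, 47.4 and 48.7 CPM in IR64.

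Os02g0492900 was lower in OsEPF1-oe at every developing stage. It had 22.9, 22.5 and 25.3 CPM at IR64 stage 1 and 5.69, 7.16 and 6.34 CPM at OsEPF1-oe stage 1. At stage 3 it had 8.26, 6.67 and 6.18 CPM against 2.00, 2.11 and 0.835 CPM, and at stage 5 2.59, 2.35 and 1.43 CPM against 0.318, 0.660 and 0.513 CPM. The libraries of the lines did not overlap at these stages, and within OsEPF1-oe the gene still fell by 3.47 ± 0.32 (SE) on the log2 scale from stage 1 to 5 (adjusted p = 1.88e-10).

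In mature florets most of the 258 genes went lower still and a minority came back. From OsEPF1-oe stage 5 to mature, 156 were called lower (33.2% of all tested genes) and 31 higher (36.1%), with a median log2 fold change of -0.86 beside 0.04 for all tested genes. With column sums only, these medians were -1.04 and -0.14. Without mature replicate 2, the library with the lowest level of 189 genes, 144 were called lower and 33 higher. In IR64, where stage 5 chose the genes and nothing was tested, 50 of the 258 had a higher mean in mature florets than at stage 5, and 41 of these were among the 47 with a higher mean in OsEPF1-oe. The mature mean was under 1 CPM for 64 genes in IR64 and 66 in OsEPF1-oe.

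Replication genes did not move alike from OsEPF1-oe stage 5 to mature florets. All 5 MCM genes fell further, by 0.53 to 0.92 on the log2 scale, RPA1B by 1.40 ± 0.17 (SE; adjusted p = 2.15e-08) and ORC1 by 1.06 ± 0.21 (adjusted p = 6.02e-05). For POLD1 (0.11 ± 0.19, adjusted p = 0.621) and ORC3 (-0.32 ± 0.19, adjusted p = 0.142) no change was called, nor for the cell cycle repressor RBR1 (-0.14 ± 0.23, adjusted p = 0.602). Histone genes went on falling, H2B.2 by 2.16 ± 0.19 (adjusted p = 4.00e-11), from 101, 135 and 143 CPM at stage 5 to 28.7, 17.1 and 29.3 CPM. The 6 kinesins fell by 0.77 to 1.35. GRF10 fell by 2.80 ± 0.30 (adjusted p = 3.26e-09), to 0.370, 0.443 and 0.796 CPM, while MEL1 (-0.20 ± 0.24, adjusted p = 0.473) and MET1A (-0.05 ± 0.31, adjusted p = 0.895) did not pass.

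The deepest further falls were in genes without a name. Os04g0648600 had 1.79, 1.41 and 1.23 CPM at stage 5 and 0.0617, 0 and 0 CPM in mature florets, which is 113 counts against 2 and a ratio 65.7-fold lower, with an exact 95% interval of 17.8 to 549 for counting error only. Os04g0298700 had 3.22, 3.65 and 3.56 CPM and 0.185, 0.0738 and 0.0332 CPM, a fall of 4.89 ± 0.35 on the log2 scale (adjusted p = 6.38e-13). Os09g0395600, with 18.8, 22.2 and 24.6 CPM and 2.097, 0.738 and 1.49 CPM, fell by 3.72 ± 0.22 (adjusted p = 5.87e-15). Os01g0660800, with 7.20, 13.1 and 14.0 CPM and 0.864, 0.369 and 1.23 CPM, fell by 3.60 ± 0.27 (adjusted p = 1.03e-12). The mature IR64 libraries of these 4 genes were also low, at no more than 2.03 CPM.

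Of the 31 genes that rose again, 3 passed their own stage 1 mean. Os02g0797100 had 6.49, 5.10 and 7.21 CPM at OsEPF1-oe stage 1, 0.278, 0.0440 and 0.171 CPM at stage 5 and 21.6, 30.0 and 42.0 CPM in mature florets, a rise of 7.70 ± 0.55 (SE; adjusted p = 4.11e-13). In IR64 its mature libraries had 26.2, 12.7 and 25.2 CPM. Its level was thus low at stages 4 and 5, between a higher stage 1 level and a still higher mature one, in both lines. Stages 4 and 5 overlapped at few counts, with 0, 5 and 10 against 3, 4 and 4 in IR64. In OsEPF1-oe the counts were 8, 5 and 2 against 7, 1 and 5. The choice of genes fixed stage 5 as the lowest developing stage in IR64. Os01g0705200 had 0.636, 0.352 and 0.171 CPM at stage 5 and 1.91, 9.70 and 28.2 CPM in mature florets, a rise of 5.32 ± 1.11 (adjusted p = 0.000125) with a wide spread. Its stage 1 libraries, at 26.1, 11.6 and 1.09 CPM, overlapped the mature ones. Os02g0676400 rose by 4.70 ± 0.77 (adjusted p = 4.76e-06), to 0.679, 4.61 and 5.47 CPM, and Os11g0533400 by 4.54 ± 0.92 (adjusted p = 7.99e-05), to 2.34, 3.28 and 5.04 CPM. These rises started from few counts at stage 5, 2, 4 and 6 for Os02g0676400 and 8, 4 and 1 for Os11g0533400. Neither gene passed its stage 1 mean, with stage 1 libraries of 12.7, 8.94 and 11.7 CPM and of 8.11, 4.86 and 1.27 CPM. Genes that rose had a median OsEPF1-oe stage 1 level of 22.4 CPM, and those that fell further 68.7 CPM. None of the 27 named genes was among the 31.

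**Figure D5:**
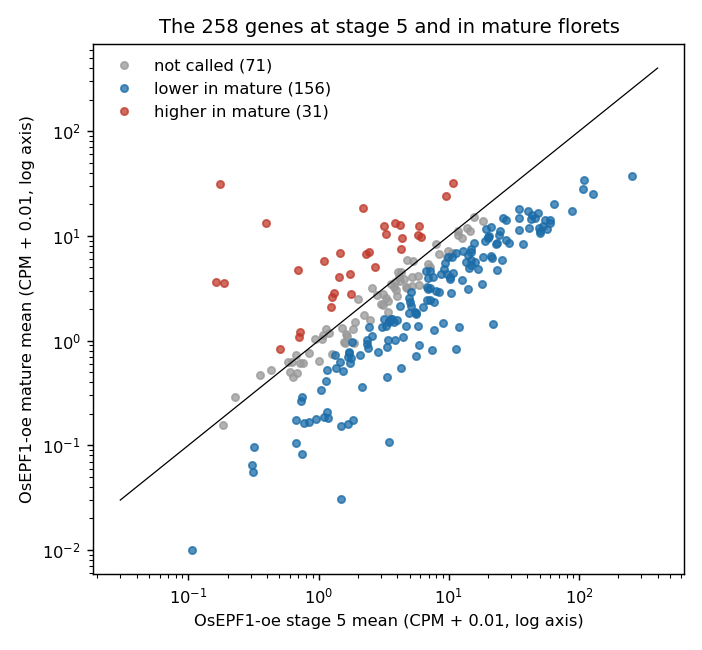
Mean CPM + 0.01 (log axes) of the 258 genes in OsEPF1-oe at stage 5 (horizontal) and in mature florets (vertical), with a line at equal levels, 156 genes called lower in mature florets in blue, 31 called higher in red and 71 without a call in grey. The red genes at the far left are Os02g0797100, Os02g0676400, Os11g0533400 and Os01g0705200.

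Between the lines, mature florets differed in few of these genes. Of the 258, 5 were called lower in OsEPF1-oe (1.25% of all tested genes) and 0 higher (0.771% of all tested genes), with a median log2 fold change of -0.14 beside -0.03 for all tested genes. Higher genes numbered 7 at an unadjusted p under 0.05 and 0 by DESeq2, and lower ones 36 at an unadjusted p under 0.05 and 11 by DESeq2. The direction of most calls over all genes depended on scaling, with 335 lower and 206 higher under TMM, 257 and 276 with upper-quartile scaling and 192 and 578 with column sums only, and with column sums only the median of all tested genes was 0.07 and that of the 258 was -0.02. The ratio of mean CPM had a median of -0.03 over the 258, and of 0.13 without OsEPF1-oe replicate 2.

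Os02g0492900 had 3.50, 2.64 and 2.097 CPM in mature IR64 florets and 0.524, 0.701 and 1.23 CPM in OsEPF1-oe, a log2 difference of -1.84 ± 0.30 (SE; adjusted p = 0.000767). It was thus lower in OsEPF1-oe in libraries that the choice of genes did not use. Os05g0573900, with 2.42, 2.19 and 3.27 CPM against 1.45, 0.775 and 1.89 CPM, was lower by 1.06 ± 0.25 (adjusted p = 0.0201), a call that ended without OsEPF1-oe replicate 2 or IR64 replicate 3. Os09g0466400, with 6.18, 3.67 and 3.72 CPM against 3.61, 2.21 and 2.82 CPM, was lower by 0.75 ± 0.17 (adjusted p = 0.0148), which did not hold without OsEPF1-oe replicate 2 or IR64 replicate 1. Os03g0407400, with 4.36, 4.43 and 3.97 CPM against 2.99, 2.73 and 3.92 CPM, was lower by 0.51 ± 0.14 (adjusted p = 0.0475), and that call was lost in 5 of the 6 fits that left out a library. The fifth gene, Os01g0852400, at -0.53 ± 0.14, had overlapping libraries. When only the 6 mature libraries were fitted, none of these passed, and 0 genes of the 258 were called.

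The 258 genes lay on all 12 chromosomes, from 12 on chromosome 10 to 44 on chromosome 3, which is 0.452% of the table's genes on chromosome 7 and 0.967% on chromosome 3 at the extremes. A total of 10 pairs of the 258, 20 genes, were next to each other in the order of the table. One of these pairs holds Os03g0297850, one of the late droppers, and Os03g0297800. Whether reads were counted by strand is not given, so overlapping or antisense loci within such pairs cannot be told apart, and genes with near-identical copies, which histone families contain, could share reads.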

How the data were processed

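The authors deposited raw counts of reads for each gene in 1 table of 36 libraries. Per the submitters' processing notes, Trimmomatic 0.38, HISAT2 2.1.0, Subread 2.0.0 and featureCounts were used with IRGSP-1.0; how multi-mapping reads and strand were handled is not stated there. Totals were 22372257 to 55476576 counts, no 2 libraries were identical, and the interval and floors given reflect counting error alone. The labels call the replicates of developing florets biological, each from 3 plants, while for mature florets nothing says so. The mature p-values rest on a spread estimated for each gene over all 12 groups together. The spread between the mature samples themselves may be technical.

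CPM on column sums chose the genes from the 15 developing IR64 libraries, leaving out 3 genes; some genes and 1 list are not reported here. The members and lists were chosen with earlier results of these data known. Contrasts with IR64 stages 1 to 5 were therefore described and not tested. Counts were fitted in R 4.3.3 with edgeR 4.0.16 (filterByExpr, TMM, robust quasi-likelihood, 12 groups, 24 residual degrees of freedom, checked on simulated data), with Benjamini-Hochberg adjustment over 26726 genes and calls at 0.05; DESeq2 1.42.0, other scalings and filters, a replicate block and single libraries left out were alternatives. Levels in the text are CPM, and fold changes are edgeR's.

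Names were written from general knowledge in 10 lists and 18 later pairs, and used where the name stood as a symbol or synonym in the RefSeq table (assembly ASM3414082v1) on the same chromosome within 1000 kb of the place expected from neighbouring pairs, which 105 of 155 pairs met. Apart from those, the text names every member with a checked name, the 12 with the highest level, the 4 strongest per direction in each mature comparison with at least 1 CPM and libraries that do not overlap, the 5 earliest and 5 latest to drop, any with an OsEPF1-oe stage 5 mean above 1/2 of stage 1 (there were none), and 3 on each side of both limits; others were picked after their values were seen. Promoter motifs and sequences were not analysed here. Same-numbered libraries of OsEPF1-oe stages 1 and 5 deviated together (correlations 0.161 to 0.387 over tested genes). The reported fits did not pair them, and the alternative fit with a replicate block left all 258 calls in place.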

Additional observations from a re-analysis of the deposited data

How the results depend on the processing

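The number of genes chosen was 183 with TMM-scaled CPM, 677 with a limit of 1/4, 37 with 1/16, 302 from 2 CPM, 230 from 10 CPM and 245 to 274 without 1 replicate number. With TMM-scaled CPM 112 met the rule in both lines. On column sums 177 did, and 168 to 177 of the 258 when 1 replicate number was left out of the OsEPF1-oe means only. All 258 genes stayed called from stage 1 to 5 in OsEPF1-oe under each alternative run. From stage 1 to 2, counts of lower genes ran from 31 to 87 without single libraries, and DESeq2 gave 126. The higher call from stage 4 to 5 ran from 0 to 1 without single libraries. Between lines in mature florets, lower genes numbered 3 with upper-quartile scaling, 3 with column sums, 3 with no filter, 0 with the mature libraries alone, 11 with DESeq2 and 1 to 16 without single libraries, and higher genes 0 to 1; the lone libraries' spread was pooled over all groups. Chosen after seeing the data, genes picked by the OsEPF1-oe rule gave a median log2 line ratio of 0.074 at stage 5, and the stage 3 median ran from -0.12 to -0.041 without single libraries. Of 826 alternative values of named genes, 810 kept direction and side of the threshold, 16 lost the call and 0 reversed; the cause was not tested. With the replicate block, 87, 234, 174 and 164 genes were lower at the 4 steps, 157 lower and 33 higher in mature florets, and 7 lower between mature lines; same-numbered libraries did not all deviate together there (correlations -0.248 to 0.478). The block changed no other call of a count by over 1.5 times. Levels near 3 counts limit the low mature values.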
